A study of Mus musculus with 9 samples.

Results

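The 6 genes described here build or load MHC class II, the surface complex that shows peptides from swallowed protein to helper T cells: the chain genes H2-Aa, H2-Ab1 and H2-Eb1, the peptide exchange subunit gene H2-DMa, the invariant chain gene Cd74 and the transactivator gene Ciita. They were found by symbol, and 14 of 45101 probe sets listed one of them, none together with another gene: 4 for H2-Aa, 3 each for H2-Ab1 and Ciita, 2 for H2-DMa and 1 each for H2-Eb1 and Cd74. The arrays measured RNA of mouse blood cells grown from sorted LSK cells, bone marrow stem and progenitor cells that lack lineage markers and carry Sca-1 and c-Kit, of wild-type C57/Bl6 mice. After 3 days the cells that did not adhere were collected from OP9 stromal layers of 3 kinds, with 3 arrays each. The first was OP9-DL1, a layer that presents the Notch ligand Delta-like 1, with 1 µM Compound E, which inhibits γ-secretase, the protease that releases the active part of Notch. The second was OP9-DL1 without the inhibitor and the third OP9-GFP, the control layer without the ligand. Every layer was made from the OP9 line, and no group had the inhibitor without the ligand. The series asked about Notch signalling in stem cell differentiation. Whether the arrays of a group hold RNA of different mice, of different dishes or of a single extract is not in the labels. The p-values therefore reflect array-to-array spread, which may be technical.

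A class II molecule is a pair of an α and a β chain, which mouse H2-Aa and H2-Ab1 encode for I-A, while H2-Eb1 encodes the β chain of I-E. The α chain gene of I-E, H2-Ea, is a transcribed pseudogene in the RefSeq table and lay near background here. H2-Eb1 RNA therefore does not show that an I-E pair was made, and protein was not measured. The invariant chain fills the groove of new pairs and guides them to endosomes, where proteases trim it and the DM dimer exchanges its last fragment for peptide. Ciita is the co-activator that the class II promoters need, and dendritic cells, macrophages and B cells are the main blood cells that carry the complex.

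Both cell identity and Notch response could be checked on the arrays, whose values are log2 per probe set as deposited. The pan-leukocyte gene Ptprc read 11.49 to 11.71 with Compound E, 11.24 to 11.47 on OP9-DL1 and 11.48 to 11.62 on OP9-GFP. Kit, the c-Kit receptor used in the sort, read 8.05 to 8.27 with Compound E, 10.05 to 10.36 on OP9-DL1 and 8.81 to 9.11 on OP9-GFP. The Notch target Nrarp averaged 5.02 ± 0.23 with Compound E, 9.30 ± 0.12 on OP9-DL1 and 6.61 ± 0.02 on OP9-GFP (SD, n = 3 each). Array medians ran from 4.78 to 4.94, and 27 probe sets for bacterial transcripts, taken as background, lay between 2.24 and 3.64. The H2-Aa probe set 1443783_x_at lay in that range on all 9 arrays, and each of the other 13 had at least 1 array above it.

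The members did not move as a block on the ligand layer. H2-Eb1 was higher on OP9-DL1 than on OP9-GFP, by 0.49 ± 0.08 on the log2 scale (model SE), or 1.41-fold. H2-DMa was 1.56-fold and Cd74 1.32-fold lower. H2-Aa rose by a small amount on 1 of its probe sets, and no probe set of H2-Ab1 or Ciita was called. Over the 14 probe sets 2 were called higher and 3 lower, against 12.1% and 12.8% of all 45037 probe sets tested, and 24.9% either way. The 2 groups of arrays did not overlap for 5 of the 14, against 37.2% of all. The members' median change was -0.03, against -0.02 over all probe sets. Calls are at an adjusted p under 0.05 (limma with Benjamini-Hochberg adjustment over all probe sets).

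H2-Eb1 read 8.68, 8.51 and 8.72 on OP9-DL1, against 8.17, 8.14 and 8.12 on OP9-GFP. Each OP9-DL1 array lay above every OP9-GFP array, with an adjusted p of 0.000253. In these bulk samples fewer cells carrying a transcript and less of it per cell cannot be told apart. For H2-Aa, the probe set with the highest mean, 1435290_x_at, read 9.20, 9.20 and 9.31 on OP9-DL1, against 9.06, 9.03 and 9.0 on OP9-GFP. That was a rise of 0.21 ± 0.06 with an adjusted p of 0.0286, without overlap. It was the least secure of the calls: the adjusted p was 0.0825 with each array centred on its median, 0.42 when its probe sets were averaged and 0.0537 to 0.114 without any one of 5 arrays, which were the 3 OP9-GFP arrays and OP9-DL1 replicates 1 and 3. The other H2-Aa probe sets differed by 0.06 (1438858_x_at), 0.05 (1452431_s_at) and 0.03 (1443783_x_at) and were not called.

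H2-Ab1, whose product pairs with that of H2-Aa, gave no call. Its probe set 1450648_s_at read 9.19, 9.30 and 9.23 on OP9-DL1, against 9.26, 9.16 and 9.11 on OP9-GFP, and the groups overlapped. The difference was 0.07 ± 0.07, with an adjusted p of 0.595. The remaining H2-Ab1 probe sets differed by 0.02 (1451721_a_at) and -0.09 (1425477_x_at), also with overlap.

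The loading genes went down on the ligand layer. H2-DMa, at 1422527_at, read 9.72, 9.63 and 9.84 on OP9-DL1, against 10.40, 10.42 and 10.30 on OP9-GFP, a difference of -0.64 ± 0.06 with an adjusted p of 6.43e-07. Its other probe set, 1459872_x_at, read 6.45, 6.41 and 6.11 on OP9-DL1, against 6.83, 6.91 and 6.88 on OP9-GFP, a difference of -0.55 ± 0.12 with an adjusted p of 0.002. Neither showed any overlap of the groups. Cd74 read 11.46, 11.39 and 11.47 on OP9-DL1, against 11.83, 11.88 and 11.82 on OP9-GFP, and again every ligand array was below every control array. The difference was -0.40 ± 0.04, with an adjusted p of 2.53e-06.

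Ciita was uncertain in this comparison. Its probe set 1421211_a_at read 5.18, 4.97 and 4.85 on OP9-DL1, against 5.81, 5.64 and 5.05 on OP9-GFP, where replicate 3 lay among the ligand arrays. The difference of -0.50 ± 0.20 had an adjusted p of 0.0837. Without OP9-GFP replicate 3 it was -0.72, with an adjusted p of 0.00931. The dimmer probe sets 1421210_at and 1447075_at differed by -0.19 and -0.32 and were not called.

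**Figure D1:**
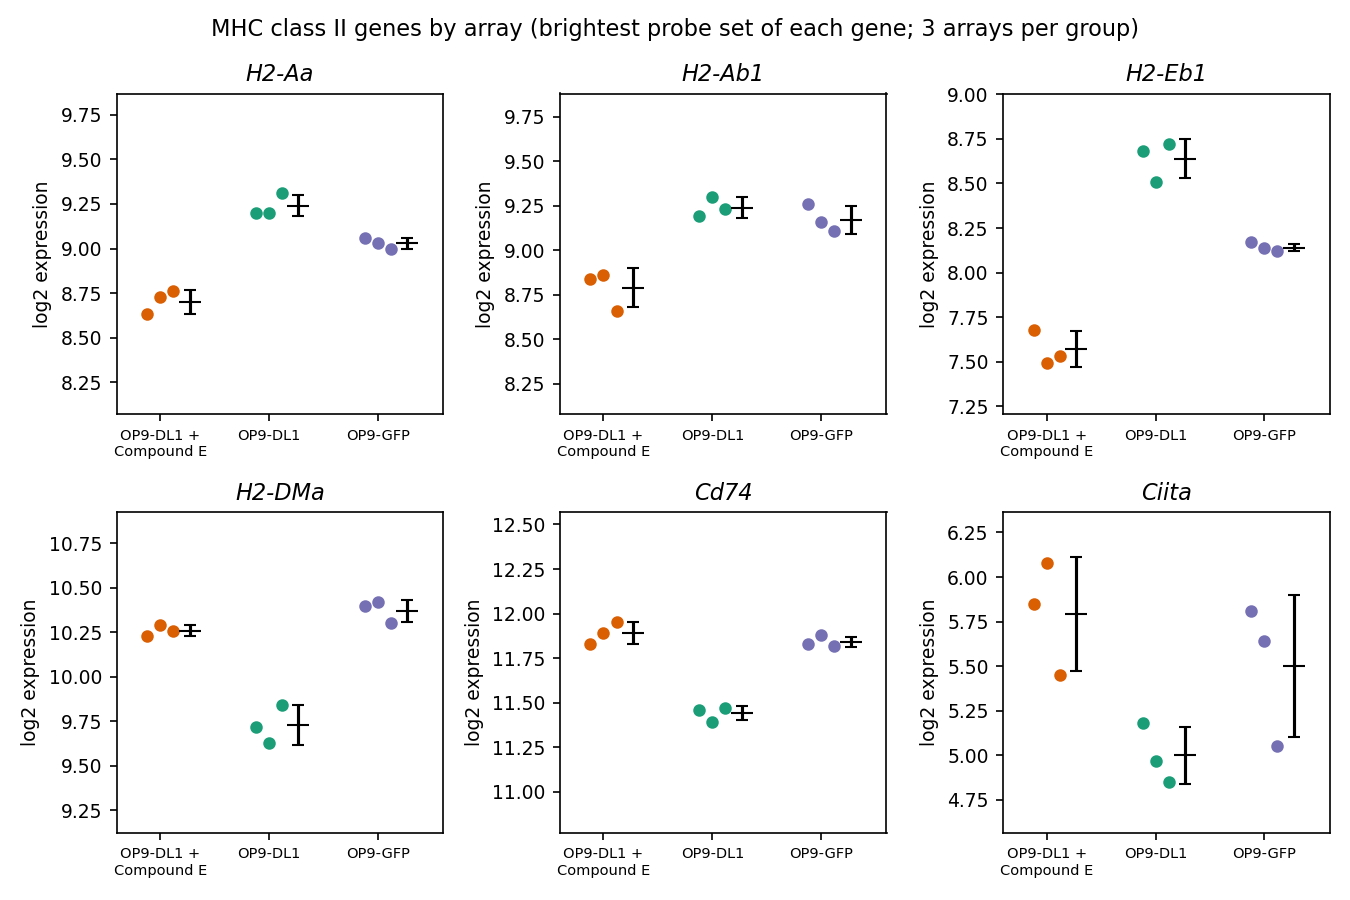
Deposited log2 values of the 6 genes on all 9 arrays, by group, with 1 panel per gene. Each gene is shown at its probe set with the highest mean, with coloured points for arrays and black marks for mean and SD. H2-Eb1 is highest on OP9-DL1 (8.51 to 8.72), whereas Cd74 (11.39 to 11.47) and H2-DMa 1422527_at (9.63 to 9.84) are lowest there.

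Adding Compound E to the ligand layer gave calls for all 6 genes, 3 in each direction, each gene taken at its probe set with the highest mean. Of all 18193 genes taken so, 23.8% were called higher and 21.0% lower, and 44.9% either way. The chain genes H2-Eb1, H2-Aa and H2-Ab1 were lower with the inhibitor than without, by 2.10-fold, 1.45-fold and 1.37-fold at their probe sets with the highest mean. H2-DMa, Cd74 and Ciita were higher, by 1.45-fold, 1.37-fold and 1.73-fold. By probe set 4 were called higher and 4 lower, against 19.1% and 20.0% of all probe sets, and 39.1% either way. The groups did not overlap for 10 of the 14, against 47.0% of all. The median change over the 14 was -0.12, against 0.06 over all probe sets. The comparison shares the OP9-DL1 arrays with the preceding one, so opposite signs in the pair are not independent of each other.

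H2-Eb1 had the largest fall of the 6, reading 7.68, 7.49 and 7.53 with Compound E against the 8.51 to 8.72 on OP9-DL1 given above. The difference was -1.07 ± 0.08, with an adjusted p of 3.54e-08. H2-Aa at 1435290_x_at read 8.63, 8.73 and 8.76 with Compound E, a difference from OP9-DL1 of -0.53 ± 0.06 with an adjusted p of 5.92e-06. A second H2-Aa probe set, 1452431_s_at, read 7.77, 7.65 and 7.69 with Compound E, against 7.98, 8.10 and 8.19 on OP9-DL1, and fell by 0.39 ± 0.08 with an adjusted p of 0.00116. In each case all inhibited arrays lay below all OP9-DL1 arrays. The third, 1438858_x_at, differed by -0.16 with an adjusted p of 0.154, and 1443783_x_at, at background, by -0.07.

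H2-Ab1 at 1450648_s_at read 8.84, 8.86 and 8.66 with Compound E, below all OP9-DL1 arrays. The difference was -0.45 ± 0.07, with an adjusted p of 9.21e-05. Its other probe sets differed by -0.20 (1425477_x_at) and -0.16 (1451721_a_at), with adjusted p of 0.302 and 0.202. Averaging all probe sets of a gene gave -0.27 for H2-Ab1 and -0.29 for H2-Aa, with adjusted p of 0.0151 and 0.00489, so both stayed called at a smaller size.

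The loading genes were higher with the inhibitor, as was Ciita, which is described after them. H2-DMa read 10.23, 10.29 and 10.26 at 1422527_at with Compound E, a difference from OP9-DL1 of 0.53 ± 0.06 with an adjusted p of 3.32e-06. At 1459872_x_at it read 6.69, 6.69 and 6.93, a difference of 0.45 ± 0.12 with an adjusted p of 0.00568. Cd74 read 11.83, 11.89 and 11.95 with Compound E, a difference of 0.45 ± 0.04 with an adjusted p of 4.39e-07. In all 3 cases the inhibited arrays lay above the OP9-DL1 arrays without overlap.

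Ciita rose at 1421211_a_at, which read 5.85, 6.08 and 5.45 with Compound E against 5.18, 4.97 and 4.85 on OP9-DL1. The difference was 0.79 ± 0.20, with an adjusted p of 0.00454, and every inhibited array was above every OP9-DL1 array. The size depended on the scale: it was 0.45 after an offset of 32 was added to the linear values and 0.42 with its probe sets averaged, both still called. The dimmer 1421210_at and 1447075_at differed by 0.24 each, with adjusted p of 0.184 and 0.257.

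**Figure D2:**
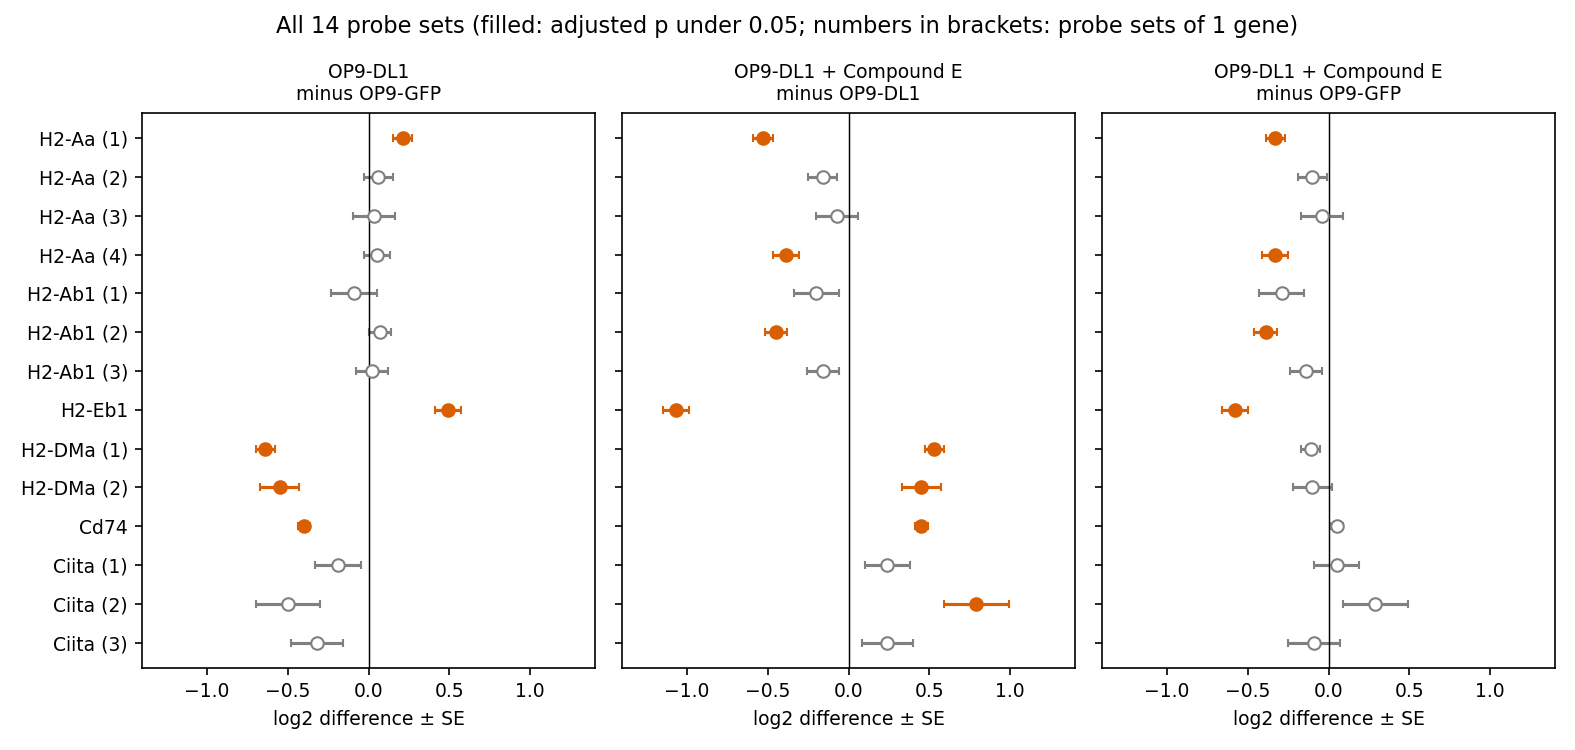
Log2 differences of the 14 probe sets in the 3 comparisons, with model standard errors as bars and filled points for adjusted p under 0.05. For the inhibitor against the untreated ligand layer, H2-Eb1 lies at -1.07 and Ciita 1421211_a_at at 0.79, with Cd74 and H2-DMa on the side of Ciita.

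Set against the control layer, the inhibited cultures were lower in the chain genes and had no call in the loading genes. Of the 14 probe sets 4 were called lower, all of them chain genes, and 0 higher (limma), with 0 higher and 4 lower also at an unadjusted p under 0.05. Of all probe sets 10.8% were called lower and 8.24% higher, and 19.0% either way. Groups did not overlap for 6 of the 14, against 31.7% of all, and the median change was -0.11, against 0.03 over all probe sets. Changes of at least 2-fold were rare: 0 of the 14 for OP9-DL1 against OP9-GFP, 1 (H2-Eb1) for Compound E against OP9-DL1 and 0 for Compound E against OP9-GFP, where 5.05%, 8.13% and 1.68% of all probe sets were called at that size. H2-Eb1 differed by -0.58 ± 0.08 between Compound E and OP9-GFP, with an adjusted p of 0.000147. H2-Aa differed by -0.33 ± 0.06 at 1435290_x_at and -0.33 ± 0.08 at 1452431_s_at, with adjusted p of 0.00207 and 0.00883. The mean of the H2-Aa probe sets gave -0.20 with an adjusted p of 0.0622. H2-Ab1 at 1450648_s_at differed by -0.39 ± 0.07 with an adjusted p of 0.00132. In these 4 probe sets every inhibited array was below every OP9-GFP array.

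H2-DMa differed from OP9-GFP by -0.11 ± 0.06 at 1422527_at, with an adjusted p of 0.237, although its inhibited arrays were all lower. Cd74 differed by 0.05 ± 0.04, with an adjusted p of 0.488, and with each array centred on its median by 0.14, with an adjusted p of 0.0304. Ciita at 1421211_a_at differed by 0.29, with an adjusted p of 0.346 and overlapping arrays. The order of group means was therefore OP9-DL1, OP9-GFP, Compound E for H2-Eb1 and H2-Aa, each step past the spread between arrays, with the exceptions given above for H2-Aa. For H2-Ab1 the upper neighbours, OP9-DL1 and OP9-GFP, did not differ beyond their spread. For H2-DMa, Cd74 and Ciita the group on OP9-DL1 was lowest, and the inhibited and control cultures were not told apart.

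Of the other class II chains, H2-Ob and H2-Eb2 changed in the direction of H2-Eb1, and the probe sets shared by H2-DMb1 and H2-DMb2 in that of H2-DMa. H2-Oa, probe sets of H2-DMb2 alone and H2-Ea gave no call or calls that other settings ended. H2-Ob encodes the β chain of DO, a dimer that holds DM in check and is best known from B cells and thymus. At 1440837_at H2-Ob read 6.20, 6.07 and 6.38 with Compound E, 8.27, 8.44 and 8.08 on OP9-DL1, and 7.31, 7.14 and 7.21 on OP9-GFP. No groups overlapped. The change was 1.05 ± 0.11 for OP9-DL1 against OP9-GFP, -2.05 ± 0.11 for Compound E against OP9-DL1 and -1.0 ± 0.11 for Compound E against OP9-GFP, with adjusted p of 2.29e-06, 5.37e-10 and 1.48e-05. A probe set that lists H2-Ob with a predicted gene, 1422201_at, gave 0.26, -0.79 and -0.52, of which the last 2 were called. H2-Oa, the partner α chain, gave -0.21, 0.12 and -0.09, with no call. With arrays centred on their medians the first 2 became -0.25 and 0.26, with adjusted p of 0.0409 and 0.021.

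H2-Eb2, a second β chain gene of the I-E type, read 4.26, 4.23 and 4.32 with Compound E, 4.82, 5.11 and 4.79 on OP9-DL1, and 4.0, 4.11 and 3.93 on OP9-GFP. All OP9-DL1 arrays were the highest. The change was 0.89 for OP9-DL1 against OP9-GFP and -0.64 for Compound E against OP9-DL1, with adjusted p of 0.000113 and 0.00147. At these dim levels the sizes depend on the scale, and with an offset of 32 they were 0.36 and -0.27.

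H2-DMb1 and H2-DMb2 encode the β chain of DM, and 2 probe sets list both. The brighter, 1449580_s_at, read 9.22, 9.39 and 9.38 with Compound E, 8.30, 8.13 and 8.35 on OP9-DL1, and 9.39, 9.50 and 9.30 on OP9-GFP. The OP9-DL1 arrays lay below all others. The change was -1.14 for OP9-DL1 against OP9-GFP, 1.07 for Compound E against OP9-DL1 and -0.07 for Compound E against OP9-GFP, the first 2 with adjusted p of 1.7e-08 and 2.31e-08. The other shared probe set, 1418638_at, gave -1.09, 1.05 and -0.03. A probe set that lists H2-DMb2 alone, 1443686_at, gave -0.16, -0.13 and -0.28, the last with an adjusted p of 0.0324, which centring ended (-0.19, 0.108). Another, 1419744_at, was lower on every OP9-DL1 array than on OP9-GFP, by -0.31 with an adjusted p of 0.0496, and gave 0.05 and -0.26 in the other comparisons, not called. Its call ended with an offset of 32 (-0.23, adjusted p 0.0644) and without any one of 6 arrays, with adjusted p of 0.0563 to 0.207. No probe set lists H2-DMb1 alone. H2-Ea, the α chain of I-E and a transcribed pseudogene in the RefSeq table, lay near background on 3 probe sets. Its 1422891_at gave 0.60 for Compound E against OP9-DL1 with an adjusted p of 0.0445, but 0.23 and 0.179 without Compound E replicate 2, which read 4.57 against 3.38 and 3.55.

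Promoters are shown for H2-Aa, H2-Eb1 and H2-Ob, which moved one way, and for H2-DMb1, measured together with H2-DMb2, whose shared probe sets moved the other way, because class II promoters are known to share a set of boxes to which RFX, CREB and NF-Y bind as the platform for CIITA. RefSeq promoter windows of GRCm38.p6, from 250 bases before the start to 50 after it, were at hand for 3 of the 6 members, and H2-Ab1, Ciita and Cd74 are named only. The letters searched on both strands were CCAAT for the Y box core, TGACG for the CREB core, a degenerate X box consensus and an interferon response element, the last 2 given by name alone. Matches are in capitals, and the X box match is the run of capitals that lies before the Y box core in the lines of H2-Eb1 and H2-DMb1. Each line gives the sequence 5′ to 3′ in the direction of transcription.
H2-Aa (chr17:34287774-34288073, minus strand): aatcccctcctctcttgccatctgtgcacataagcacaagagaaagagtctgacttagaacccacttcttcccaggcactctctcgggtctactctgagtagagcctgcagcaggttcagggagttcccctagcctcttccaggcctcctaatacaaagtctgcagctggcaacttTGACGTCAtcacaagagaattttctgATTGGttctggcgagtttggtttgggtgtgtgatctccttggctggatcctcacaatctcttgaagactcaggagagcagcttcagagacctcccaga
H2-Eb1 (chr17:34305617-34305916, plus strand): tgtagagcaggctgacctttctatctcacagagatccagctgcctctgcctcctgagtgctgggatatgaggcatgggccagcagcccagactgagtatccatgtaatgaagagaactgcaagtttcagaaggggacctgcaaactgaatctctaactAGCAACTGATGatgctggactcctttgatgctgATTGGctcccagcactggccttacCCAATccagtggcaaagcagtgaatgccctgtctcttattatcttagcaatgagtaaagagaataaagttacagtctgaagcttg
H2-Ob (chr17:34238655-34238954, plus strand): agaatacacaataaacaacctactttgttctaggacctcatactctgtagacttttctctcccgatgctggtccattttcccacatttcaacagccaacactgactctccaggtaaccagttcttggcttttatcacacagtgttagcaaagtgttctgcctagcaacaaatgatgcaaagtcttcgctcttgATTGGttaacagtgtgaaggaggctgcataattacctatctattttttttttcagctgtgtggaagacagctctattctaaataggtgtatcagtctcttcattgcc
H2-DMb1 (chr17:34152941-34153240, plus strand): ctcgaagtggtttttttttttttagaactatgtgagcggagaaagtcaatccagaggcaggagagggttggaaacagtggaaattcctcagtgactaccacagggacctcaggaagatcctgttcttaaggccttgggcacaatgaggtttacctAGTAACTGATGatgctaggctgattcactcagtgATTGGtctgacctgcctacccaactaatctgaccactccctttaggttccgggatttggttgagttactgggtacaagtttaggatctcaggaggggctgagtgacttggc
The H2-Aa window holds the CREB core at -74 and, overlapping it on the other strand, at -71, followed by a Y box core at -48. The H2-Eb1 window holds an X box at -92 and Y box cores at -59 and -35. H2-DMb1, known here only from probe sets that also list H2-DMb2, holds an X box at -95 and a Y box core at -61, in much the same arrangement as H2-Eb1. H2-Ob holds a Y box core alone, at -57. Positions are counted from the transcript start, and a match is a description of letters, not a site of binding.

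Of the other class II windows, H2-Eb2 has an X box at -133 and a Y box core at -100, H2-Oa has them at -141 and -43, and H2-DMb2 has a Y box core at -90. H2-DMa has windows for 2 starts. The one with 73.0% G and C holds none of the 4 motifs and the one with 39.0% holds a Y box core at -198. Over 32851 RefSeq promoters, 37.4% hold the Y box core, 4.61% the X box, 1.66% both, 20.8% the CREB core and 3.44% the interferon element, which is in none of the class II windows. A longer form of the Y box, CTGATTGG, which overlaps the core and was chosen after the sequences were seen, is in 4.1% of promoters and in H2-Aa, H2-Eb1, H2-Eb2 and H2-Oa.

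**Figure D3:**
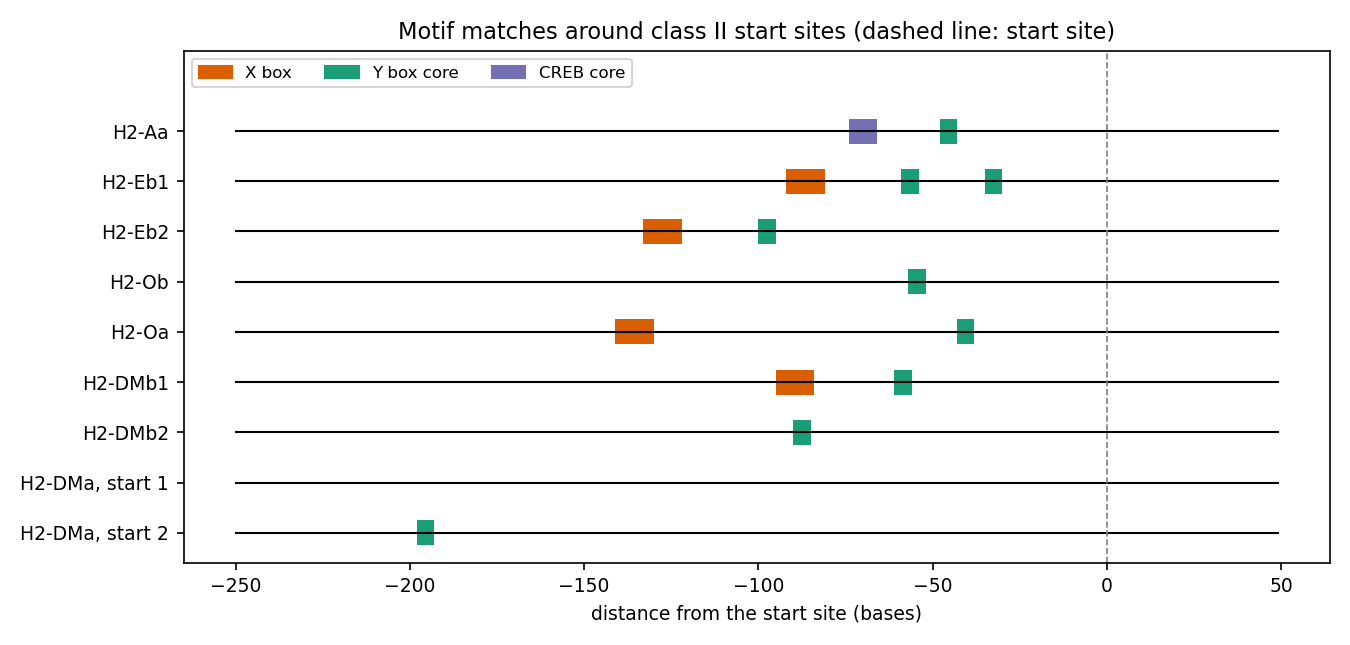
Positions of the searched motifs in the promoter windows of the class II genes, in bases from the transcript start, with colour for the motif. H2-Eb1 and H2-DMb1 hold an X box at -92 and -95 and a Y box core at -59 and -61. The H2-DMb2 window holds a Y box core alone, at -90.

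In the first 2 comparisons most genes of a wider class II list went the way of H2-DMa and Cd74. The list held other chains, endosomal enzymes, ubiquitin ligases and co-stimulators. Its 17 measured genes were each taken at the probe set with the highest mean. Of them 10 were lower and 2 higher on OP9-DL1 than on OP9-GFP. Of all 18193 genes 16.0% were called lower and 15.1% higher, and 31.0% either way. The median was -0.60, against -0.02 over all genes. With Compound E 10 were higher and 2 lower than on OP9-DL1, against 23.8% and 21.0% of all genes and 44.9% either way, with a median of 0.63 against 0.08. The 2 exceptions were H2-Ob and H2-Eb2 in both comparisons, and the 10 higher with Compound E include H2-Ea, which rests on 1 array as said above. Against OP9-GFP the inhibited cultures were higher in 6 and lower in 2, where 11.3% and 10.0% of all genes were called and 21.3% either way. With arrays centred on their medians that became 9 and 1.

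Lgmn, the asparagine endopeptidase of the endosome, read 8.27, 8.16 and 8.27 with Compound E, 5.44, 5.32 and 5.51 on OP9-DL1, and 7.73, 7.62 and 7.42 on OP9-GFP. It was lowest on every OP9-DL1 array. The change was -2.17 ± 0.10 for OP9-DL1 against OP9-GFP and 2.81 ± 0.10 for Compound E against OP9-DL1, with adjusted p of 1.74e-10 and 4.82e-12. Ctss, the cathepsin that trims the invariant chain, gave -0.88 and 0.97, and cathepsin B (Ctsb) gave -0.93 and 0.98. The co-stimulator Cd86 gave -0.92 and 1.90. Marchf1, the ubiquitin ligase that sends class II and CD86 from the surface for degradation, gave -0.95 and 1.78, and thus also fell with the ligand and rose with the inhibitor. For Cd86 on the ligand the adjusted p was 8.4e-07, and it was smaller for each other change named. In the inhibited cultures Lgmn, Marchf1 and Cd86 were above OP9-GFP by 0.64, 0.83 and 0.99, all called, while Ctss and Ctsb differed by 0.09 and 0.05, not called. With arrays centred on their medians these were 0.18 and 0.14, with adjusted p of 0.0208 and 0.00871. With probe sets averaged, Ctsb gave -1.44 on the ligand, 1.64 with the inhibitor and 0.20 against OP9-GFP (adjusted p 0.0092), and Marchf1 gave -0.63 on the ligand.

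**Figure D4:**
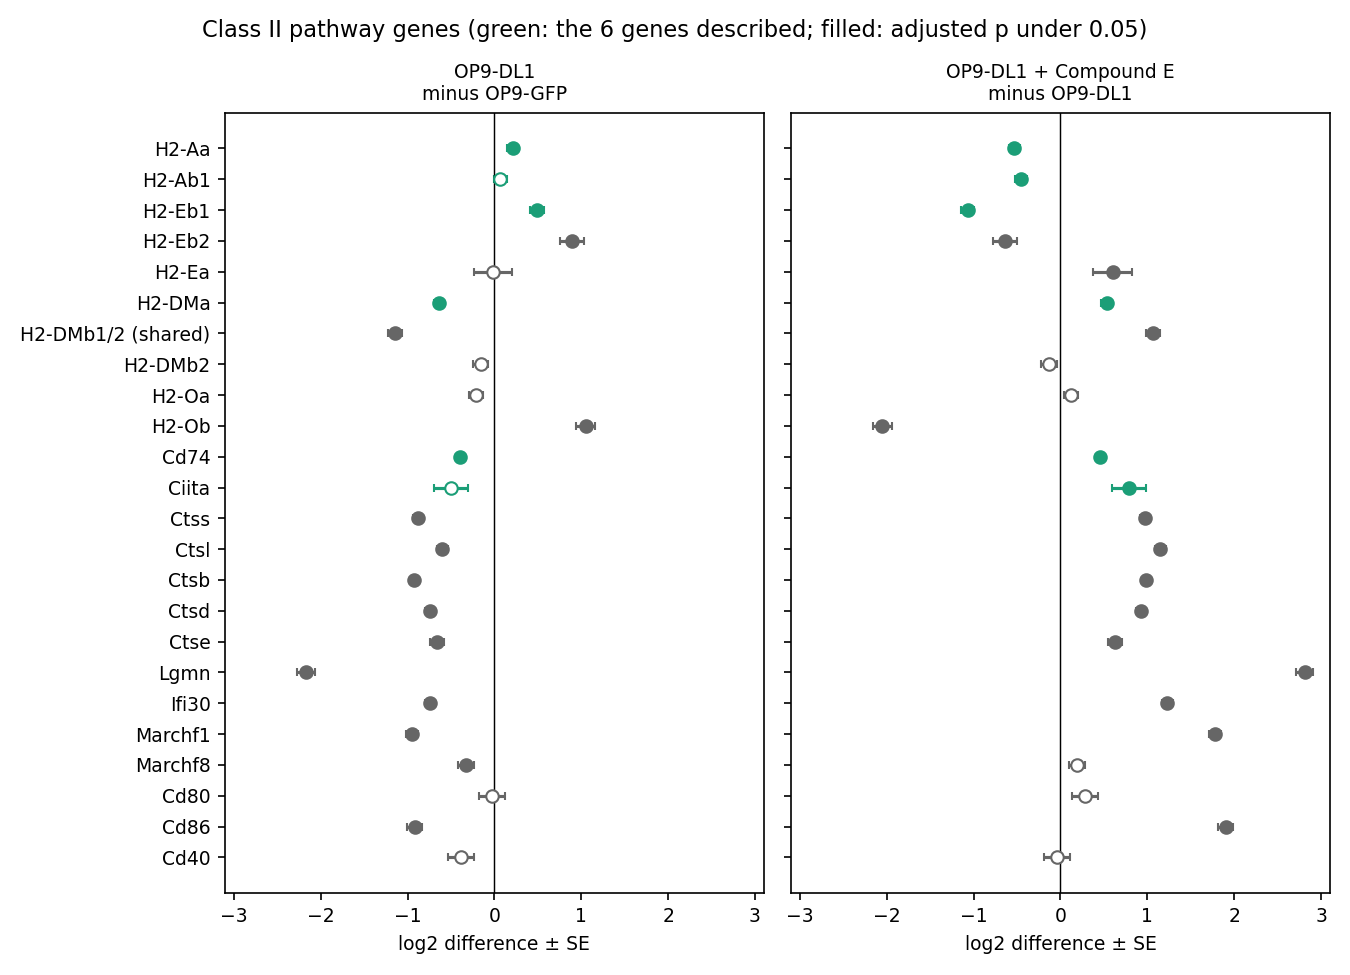
Log2 differences of the members and the other class II and processing genes, each at its probe set with the highest mean, for OP9-DL1 against OP9-GFP and for Compound E against OP9-DL1. H2-Ob (1.05 and -2.05) and H2-Eb2 (0.89 and -0.64) lie opposite Lgmn (-2.17 and 2.81) and Cd86 (-0.92 and 1.90).

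Among 24 measured regulators of class II transcription, 8 were lower and 2 higher on OP9-DL1 than on OP9-GFP, and 10 were higher and 2 lower with Compound E than on OP9-DL1. Of all genes 16.0% were called lower and 15.1% higher on OP9-DL1, and 31.0% either way. With Compound E 23.8% were called higher and 21.0% lower, and 44.9% either way. The medians were -0.07 and 0.10, near the -0.02 and 0.08 of all genes. Irf4, a factor of dendritic cells and alternatively activated macrophages, read 9.56, 9.54 and 9.65 with Compound E, 6.77, 6.77 and 6.98 on OP9-DL1, and 10.35, 10.44 and 10.32 on OP9-GFP. The groups did not overlap, and the change was -3.53 ± 0.07 for OP9-DL1 against OP9-GFP and 2.74 ± 0.07 for Compound E against OP9-DL1, with adjusted p of 3.33e-14 and 1.91e-13. Averaged over the Irf4 probe sets the sizes were -1.89 and 1.49, both still called. Irf8, Spi1 and the interferon γ receptor chain Ifngr2, which the myeloid lineage uses, gave -1.52, -0.92 and -1.39 on the ligand and 1.24, 1.38 and 1.78 with the inhibitor, all called.

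The subunits of the factors that bind the class II boxes were not all called in one direction. They are named after their values were seen. Rfxap and Rfxank, partners of Rfx5 in the RFX complex, were higher with Compound E than on OP9-DL1, by 0.65 and 0.66, with adjusted p of 7.24e-06 and 0.000379. With probe sets averaged those were 0.39 and 0.42, both still called. On the ligand they gave -0.24 and -0.42 against OP9-GFP, with adjusted p of 0.0358 and 0.0169, but both calls ended with probe sets averaged (-0.12 and -0.22, with adjusted p of 0.236 and 0.0546). Leaving out 1 array ended the Rfxap call in 5 cases, every OP9-GFP array and OP9-DL1 replicates 2 and 3 (adjusted p 0.0654 to 0.127), and the replicate block ended it too (0.0573). It ended the Rfxank call in 4 cases, OP9-GFP and OP9-DL1 replicates 1 and 2 (0.0511 to 0.0976).

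Rfx5 itself gave 0.09 for OP9-DL1 against OP9-GFP and -0.14 for Compound E against OP9-DL1, neither called, although the second had an adjusted p of 0.0372 with probe sets averaged and 0.0377 after quantile normalization. Of the NF-Y subunits, Nfyb gave 0.30 and -0.34, both called, but with probe sets averaged 0.10 (adjusted p 0.137) and -0.17, the second still called. Nfya gave 0.13 and -0.24, the second called, but -0.11 (adjusted p 0.0876) with arrays centred. Nfyc gave -0.06 and 0.06, not called, and 0.19 (adjusted p 0.00159) with Compound E when centred. Creb1 gave -0.21 and -0.01, not called. Centring gave -0.25 (adjusted p 0.0215) for Creb1 on the ligand, and averaging its probe sets gave 0.23 (0.0168) with Compound E.

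The genes whose 9 arrays ran most like each member were found by the root mean square difference between centred log2 values among 10663 genes with a mean of 5 or more. For H2-Aa they were Suclg2, Gnl3 and Serpinb1a, at 0.029, 0.031 and 0.044, and for H2-Ab1 they were Nsun2, Cst7 and Haus1, at 0.033, 0.059 and 0.062. For H2-Eb1 they were Eldr, Npl and Psma8, at 0.061, 0.067 and 0.071. For H2-DMa they were Glipr1, Aprt and Aopep, at 0.060, 0.062 and 0.064. Lamtor5, Sh3bgrl3 and Efhd2 were nearest to Cd74, at 0.024, 0.033 and 0.039, and Galns, Aldh4a1 and Gm16845 to Ciita, at 0.117, 0.148 and 0.155. No member was among another's nearest 3. H2-Ab1 ranked 308 from H2-Aa at 0.105, H2-Aa ranked 609 from H2-Eb1 at 0.235, and Cd74 ranked 115 from H2-DMa at 0.111. By this measure, which counts the size of a change as well as its direction, other genes ran closer to each member than its class II partners did. Among 10663 genes some can lie nearer than a named partner in any case. The ranks therefore do not show that the partners were unlike.

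Markers of the cells that carry class II also differed between the layers. Macrophage and monocyte markers were lower on OP9-DL1 than on OP9-GFP in 15 of 18 and higher in 0 (limma). At an unadjusted p under 0.05 also 0 were higher. Of all genes 16.0% were called lower and 15.1% higher there. The median was -1.50, against -0.02 over all genes. With Compound E 13 were higher and 1 lower than on OP9-DL1, against 23.8% and 21.0% of all genes. Compared with OP9-GFP the inhibited cultures were higher in 8 and lower in 5, against 11.3% and 10.0% of all genes. The mean over the list was 8.59 to 8.66 with Compound E, 7.25 to 7.35 on OP9-DL1, and 8.91 to 8.95 on OP9-GFP. Fcgr1, the high-affinity IgG receptor, gave -3.38 and 3.94, and the scavenger receptor Msr1 gave -3.50 and 4.03. The group means of 2 of the 18 lay within background. In the first 2 comparisons these markers mostly ran in the direction of H2-DMa, Cd74 and Ciita and opposite to H2-Eb1. Their part in the class II results was not tested.

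Dendritic cell markers went both ways, with 8 of 19 higher and 8 lower on OP9-DL1 than on OP9-GFP, against 15.1% and 16.0% of all genes. With Compound E 7 were higher and 8 lower than on OP9-DL1, against 23.8% and 21.0%. The mean over the list was 7.13 to 7.17 with Compound E, 7.42 to 7.46 on OP9-DL1, and 7.25 to 7.32 on OP9-GFP. Of the 19, Xcr1 and Cd209a had all group means within background. The integrin gene Itgax, which encodes CD11c, read 5.07, 5.06 and 5.01 with Compound E, 8.73, 8.87 and 8.96 on OP9-DL1, and 4.97, 4.74 and 4.75 on OP9-GFP. The chemokine receptor Ccr7, a mark of migrating dendritic cells and of some lymphocytes, read 7.53, 7.53 and 7.50 on OP9-DL1 and 2.84 to 3.38 in the other groups, within background. Clec10a, a lectin of macrophages and conventional dendritic cells, ran the other way, at -3.32 for OP9-DL1 against OP9-GFP and 3.13 for Compound E against OP9-DL1. The part of dendritic cells in the H2-Eb1 and H2-Aa results was not tested.

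Of 12 measured B cell markers, 6 had all group means within background, among them the defining Cd79a, Pax5 and Ms4a1. On OP9-DL1 2 were higher and 2 lower than on OP9-GFP, and with Compound E 5 were higher and 3 lower than on OP9-DL1. Pax5, Fcer2a and Blnk, whose group means all lay within background, are among the 5 higher. Blnk is also among the 2 lower on OP9-DL1. With 1 array left out the 5 higher became 3 to 6. Ebf1 read 8.43 to 9.55 over all arrays and gave 0.82 and -0.91 in these comparisons, both called. Cd79b read 7.82 to 8.85 and gave -0.81 and 0.29, both called, but the second call ended without OP9-DL1 replicate 2 (0.25, adjusted p 0.0576). Cd22 was the exception in size, at 4.17 ± 0.18 with Compound E, 7.75 ± 0.18 on OP9-DL1 and 4.14 ± 0.09 on OP9-GFP (SD, n = 3 each). Its difference for OP9-DL1 against OP9-GFP was 3.60, and 2.31 with an offset of 32. Mast cell and basophil markers were higher on OP9-DL1 than on OP9-GFP in 7 of 11. They were lower with Compound E than on OP9-DL1 in 8, and lower with Compound E than on OP9-GFP in 7. For these and the B cell, feeder and T cell lists the shares of all genes are the same. On OP9-DL1 15.1% were called higher and 16.0% lower than on OP9-GFP. With Compound E 23.8% were higher and 21.0% lower than on OP9-DL1, and 11.3% higher and 10.0% lower than on OP9-GFP. Stromal feeder markers were higher on OP9-DL1 than on OP9-GFP in 14 of 18 and lower with Compound E than on OP9-DL1 in 14. Feeder markers averaged 7.94 to 8.08 with Compound E, 8.69 to 8.72 on OP9-DL1, and 7.89 to 7.94 on OP9-GFP. Mast cell markers averaged 6.23 to 6.27 with Compound E, 7.87 to 7.91 on OP9-DL1, and 6.96 to 7.02 on OP9-GFP. Within background lay 1 of the 11 mast cell markers and 3 of the 18 feeder markers. In the first 2 comparisons these lists mostly ran in the direction of H2-Eb1. Against OP9-GFP, where H2-Eb1 was lower with Compound E, 3 of the 18 feeder markers were higher and 4 lower. Their median there was 0.12, against 0.05 over all genes. The part of the mast cell and feeder lists in the H2-Eb1 result was not tested. T cell markers were higher on OP9-DL1 than on OP9-GFP in 5 of 10 and lower in 1.

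**Figure D5:**
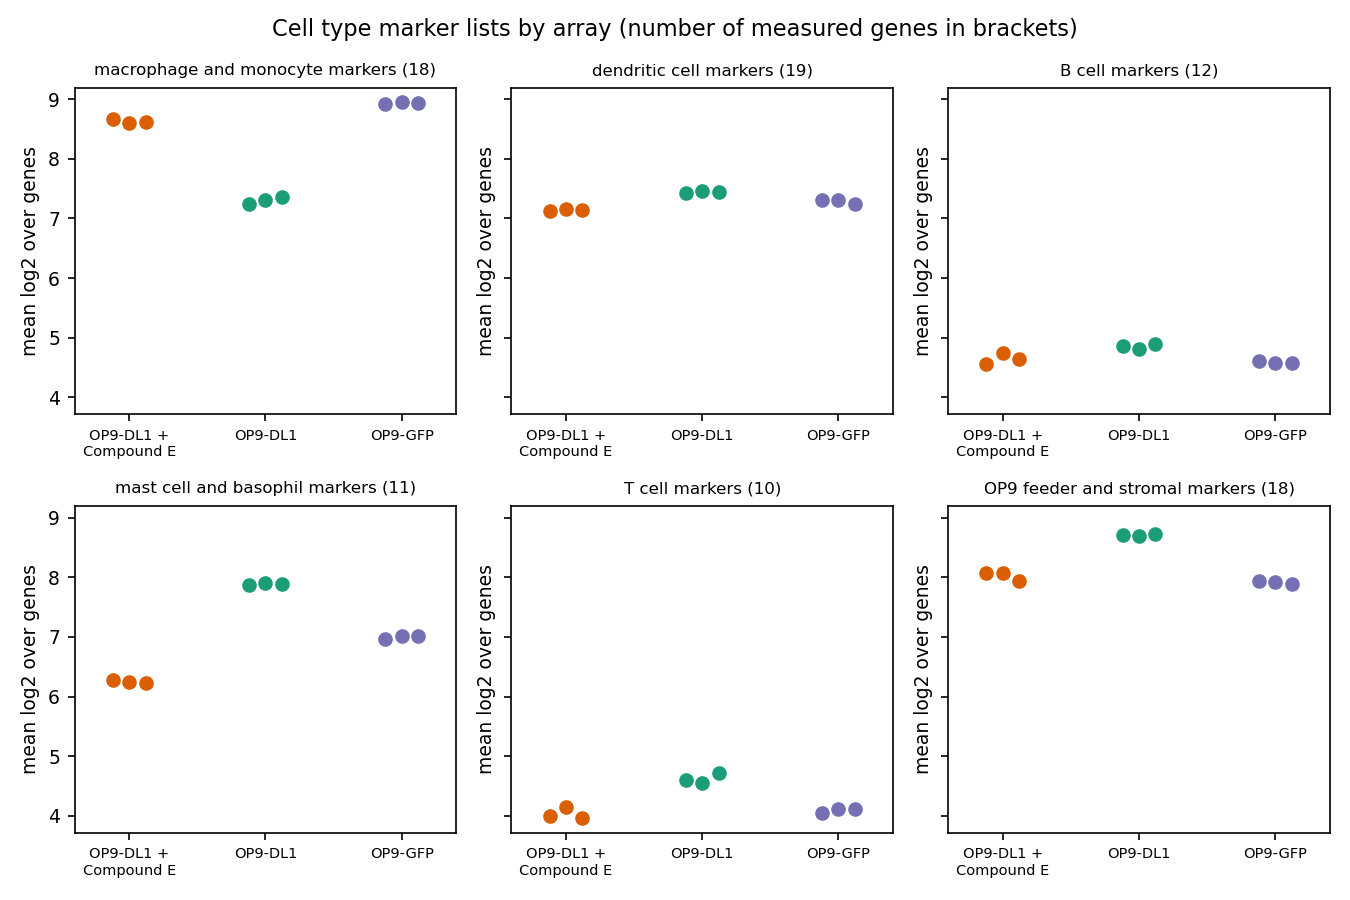
Mean log2 value over each marker list on every array, by group. The macrophage list is lowest on OP9-DL1 (7.25 to 7.35), where the mast cell (7.87 to 7.91) and feeder (8.69 to 8.72) lists are highest, and the dendritic cell list spans 7.13 to 7.46.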

How the data were processed

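RNA was measured on 9 one-colour oligonucleotide arrays, 3 per group by the sample titles, and per the labels' protocols 25 ng was amplified and labelled. Each probe set has 1 log2 value on each array, as deposited by the authors. MAS5 and GCRMA 2.4.1 stand in the submitters' processing notes, without role or order, so which of them made the values is not given. Gene names are those of the platform annotation, with symbols updated through a RefSeq table of GRCm38.p6. All 45037 probe sets other than 64 controls were fitted without a filter in limma 3.58.1 under R 4.3.3 (functions lmFit and eBayes, trend on) over all 9 arrays, and adjusted by Benjamini-Hochberg. The fit was tested on simulated data with 50 probe sets changed at each size, far fewer than were called in the real data. Of log2 changes of 0.3, 0.6, 1 and 2, 18%, 70%, 92% and 100% were called. A probe set without a call can therefore still hold a small change. Errors are SD between arrays or model SE, and 3 arrays per group limit the precision.

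Beyond the 14 member probe sets, each list gave up to 4 genes, those of lowest p, for OP9-DL1 against OP9-GFP and again for Compound E against OP9-DL1, plus the other DM and DO chains and H2-Ea. Other named genes were chosen after their values were seen. The members and lists were chosen with earlier results of these data known. Levels of different probe sets were not compared. Equal values on 2 arrays of a group occurred in 3 member cases, which lowers their spread: H2-Ab1 1451721_a_at on OP9-DL1, and H2-DMa 1459872_x_at and Ciita 1421210_at with Compound E.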

Additional observations from a re-analysis of the deposited data

How the results depend on the processing

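No member probe set changed direction while called under the alternatives tried, which were another scale, quantile normalization, centring, 2 filters on dim probe sets (the one on background added after the data were seen), a gene in place of a probe set, another variance model, fewer arrays and a block. For OP9-DL1 against OP9-GFP the 2 higher probe sets became 1 with arrays centred on their medians, 1 without the intensity trend, 1 of 6 genes by the mean of probe sets, and 1 to 2 with 1 array left out. Requiring a change of at least 2-fold left 0 higher and 0 lower there, 0 higher and 1 lower (H2-Eb1) for Compound E against OP9-DL1, and 0 lower for Compound E against OP9-GFP, where the 4 lower became 2 of 6 genes by the mean of probe sets and the 0 higher became 1 (Cd74) when centred. Centring moved all changes by -0.04, 0.13 and 0.09 in the 3 comparisons in that order. It moved the share of higher among all calls to 41.4%, 71.3% and 69.9%, against 48.6%, 48.9% and 43.4%, and the higher calls for Compound E to 16721 against OP9-DL1 and 7714 against OP9-GFP, where the deposited scale gave 8598 and 3710. It also made the Ciita probe set 1421210_at a call for Compound E against OP9-DL1 (0.38, adjusted p 0.0379). Same-numbered arrays did not deviate together (r of -0.093 to 0.095), so the numbers give no pairing. With the replicate number as a block 2 probe sets were higher and 4 lower for OP9-DL1 against OP9-GFP, the added one being Ciita 1421211_a_at with an adjusted p of 0.025. The block gave the same 4 higher and 4 lower for Compound E against OP9-DL1, and 0 and 4 against OP9-GFP. The H2-Aa probe set 1443783_x_at, within background on all arrays, gave no call and bears on no difference. The cause of these changes was not tested.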

Other observations

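Class I presentation is the pathway that shows peptides from inside the cell. Of 17 measured class I genes 9 were lower and 0 higher on OP9-DL1 than on OP9-GFP (limma; 9 and 1 at an unadjusted p under 0.05), against 16.0% and 15.1% of all genes, with a median of -0.14. With Compound E 8 were higher and 2 lower than on OP9-DL1, against 23.8% and 21.0% of all genes, with a median of 0.19. The 2 lower were the chaperones Calr (-0.23) and Canx (-0.20). Both calls ended with arrays centred on their medians (-0.10 and -0.07, with adjusted p of 0.218 and 0.355). Nlrc5, which serves class I promoters as Ciita serves class II, read 10.38, 10.30 and 10.34 with Compound E, 9.62, 9.58 and 9.66 on OP9-DL1, and 10.33, 10.26 and 10.44 on OP9-GFP. The OP9-DL1 arrays were lowest, by 0.72 ± 0.06 against Compound E and against OP9-GFP. The heavy chain genes H2-M3 and H2-D1 gave -1.02 and -0.46 for OP9-DL1 against OP9-GFP, and 1.36 and 0.62 for Compound E against OP9-DL1, all called. The H2-D1 difference on the ligand was -0.14 with an adjusted p of 0.112 for the mean of its probe sets. Averaging also ended the calls on the ligand of Tap1 (-0.09, adjusted p 0.524), Psmb8 (-0.12, 0.152) and Tapbp (-0.18, 0.0595). It ended the Tap1 call with Compound E too (0.17, 0.133). With 1 array left out the 9 lower became 6 to 9 and the 0 higher became 0 to 1. B2m, the light chain, gave 0.06 and -0.04, neither called.

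Genes that respond to interferon γ, which induces Ciita in many cells, gave no common direction. Of 16 measured, 3 were higher and 4 lower on OP9-DL1 than on OP9-GFP, and 5 higher and 3 lower with Compound E than on OP9-DL1, where 31.0% and 44.9% of all genes were called either way. For 4 of the 16 all group means lay within background. Cd274, which encodes the checkpoint ligand PD-L1, averaged 7.97 ± 0.07 with Compound E, 9.88 ± 0.09 on OP9-DL1 and 8.23 ± 0.07 on OP9-GFP (SD, n = 3 each). Cxcl10 was opposite, at 6.86 ± 0.11 with Compound E, 5.61 ± 0.22 on OP9-DL1 and 6.89 ± 0.16 on OP9-GFP. The gene for the cytokine itself, Ifng, had all group means within background.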
